A study of Homo sapiens with 18 samples.

Results

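Translation initiation factor genes encode the proteins that bring the small ribosomal subunit, the initiator tRNA and the mRNA together at a start codon. They were taken from the count table by symbol: names that begin with EIF and a digit from 1 to 6, without the EIF2AK kinases and without antisense, divergent and pseudogene names, which gave 48 of the 27781 genes in the table. Read literally, that name rule also drops EIF4EBP1, EIF4EBP2 and EIF4EBP3, which are described below as related genes. Of the 48 genes, 45 had enough counts to be tested.

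The cells were K562, an established BCR-ABL1-positive line derived from a chronic myeloid leukaemia. In the knockdown group, K562 cells received antisense gapmers against the junction where the ends of PCMTD1 exons are joined back to form the circular RNA circPCMTD1, and in the scrambled group they received gapmers of scrambled sequence. A gapmer is a short DNA oligonucleotide with modified ends that recruits RNase H to cut the RNA it pairs with. Both groups were harvested 48 hours after transfection, and each had 3 biological replicates with 3 technical libraries each, so that 18 libraries were summed into 6 replicates. The comparison asks how gene expression differs when the circular RNA is targeted. The control was the transfected scrambled gapmer, and no untransfected cells were among the samples. The sample descriptions call the scrambled reagent an siRNA, whereas the treatment text calls it a gapmer.

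Initiation begins when eIF2 delivers the initiator tRNA to the small subunit with eIF1, eIF1A, eIF3 and eIF5. The eIF4F complex, made of the cap-binding protein eIF4E, the scaffold eIF4G and the RNA helicase eIF4A, loads that subunit onto the capped mRNA, which is then scanned for a start codon. eIF5B joins the large subunit, and eIF2B recharges eIF2 with GTP. Regulation falls mainly on eIF2, through phosphorylation, and on eIF4E, through its binding proteins.

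Several of these genes carry the sequence CACGTG before their RefSeq start, the E-box that MYC and MAX bind, and it is shown because the share of member promoters that held it was above the share over all promoters. Among the 41 members with a promoter entry in the RefSeq table for GRCh38.p14, 10 members (24.39%) held CACGTG in the 250 bases before the annotated start. The same share was 8.60% over 11523 tested genes with an entry and 6.49% over all 27305 promoters. The E-box members were EIF1B, EIF2B3, EIF3F, EIF3K, EIF4A3, EIF4B, EIF4E, EIF4G1, EIF4H and EIF5A2. The E-box reads the same on both strands. Each line below is a stretch of 30 bases on the strand of the gene, with CACGTG in capitals. The EIF4B stretch is at chr12:53006422-53006451 on the plus strand and the EIF4A3 stretch is at chr17:80147232-80147261 on the minus strand. Those of EIF4E are at chr4:98929341-98929370 and chr4:98929188-98929217 on the minus strand, and those of EIF4G1 are at chr3:184314450-184314479 and chr3:184314527-184314556 on the plus strand.
EIF4B: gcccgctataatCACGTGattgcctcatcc
EIF4A3: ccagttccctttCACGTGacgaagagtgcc
EIF4E, far site: ctacccatcggcCACGTGaccagtcctttt
EIF4E, near site: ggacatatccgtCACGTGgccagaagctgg
EIF4G1, far site: ggctgtggctgtCACGTGacggggcggggg
EIF4G1, near site: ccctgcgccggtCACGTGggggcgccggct

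RefSeq and GENCODE 29 place the starts of these genes differently, and distances here are from the RefSeq start, which lies downstream of the outermost GENCODE start by 298 bases in EIF4B, 55 in EIF4A3, 1504 in EIF4E and 111 in EIF4G1. The printed stretch of EIF4B therefore falls in an annotated exon of 4 of its 14 GENCODE transcripts, both stretches of EIF4E in an exon of 1 of 11, and the near stretch of EIF4G1 in an exon of 7 of 38, while the stretch of EIF4A3 and the far stretch of EIF4G1 lie outside the GENCODE gene. EIF3F, an E-box member whose stretch is not printed, has its RefSeq start 17086 bases downstream of the outermost GENCODE start. Its E-box falls in an annotated exon of 1 of its 9 GENCODE transcripts. The first base of the E-box lies 22 bases before the start of EIF4B and 121 bases before that of EIF4A3. In EIF4E the E-boxes begin 225 and 72 bases before the start, and in EIF4G1 they begin 144 and 67 bases before it. The element TGATGNAA, searched on both strands as a form of the amino acid response element that ATF4 binds, was found in 0 of 41 member promoters, against 1.51% of the tested genes and 3.19% of all promoters. Such matches are descriptions of the sequence only. Members without a promoter entry were EIF2S2, EIF3A, EIF3CL, EIF3E, EIF3G, EIF3H and EIF3L.

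The libraries held 19118533 to 29432699 counts, and the summed replicates held 63851576 to 76087774. PCMTD1, the host gene of the targeted circle, had 20.6 ± 1.13 CPM (a gene's counts scaled to a common library size; SD, n = 3) in scrambled and 12.3 ± 0.515 CPM in knockdown replicates, without overlap, a fall of 0.74 on the log2 scale (log2 fold change -0.74, SE 0.052, adjusted p = 7.57e-10). A count per gene does not separate the circular from the linear RNA. All 9 erythroid and K562 markers were at 1 CPM or more in every replicate, with a summed level of 13200 to 13450 CPM in scrambled and 13790 to 14580 CPM in knockdown cells. The labels call the cell type lymphoblast, but of 6 lymphoid markers only CD3D reached 1 CPM, the summed level was 4.88 to 5.49 CPM in scrambled and 7.44 to 7.57 CPM in knockdown cells, and MS4A1 was at 0. The part of these marker differences in the results below was not tested. In bulk RNA, fewer cells that express a gene and less of its RNA per cell cannot be told apart.

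Deviations among the 3 knockdown replicates followed base composition, and their medians were largest in replicate 3. Replicate 3 had the highest CPM of the knockdown replicates in 14 of the 15 members with under 42% GC in their longest transcript and in none of the 12 members with over 50% GC, where it was the lowest in 11. Its log2 deviation from the other 2 knockdown replicates had a median of 0.09 in the first set and of -0.05 in the second. Across the 45 tested members, which share their libraries and are not independent, this deviation had a Pearson r of -0.75 and a Spearman rho of -0.75 with GC content. Knockdown replicates 1 and 2 trended the other way, with r of 0.66 and 0.47 and rho of 0.76 and 0.61. In scrambled replicates 1 to 3, r was 0.41, -0.11 and -0.41. Deviations within a group of 3 are tied to each other, so these correlations alone do not single out replicate 3. By technical library, as the deviation from the median library of the group, r was -0.73 and -0.72 in knockdown libraries 3_2 and 3_3 and between -0.61 and 0.61 in the other 16, with -0.095 in knockdown library 3_1. Counts of called genes in the groups below are therefore given with and without libraries 3_2 and 3_3. Without them, 15.5% of 15653 tested genes were lowered and 16.5% raised in all. These libraries were picked for their deviation in these same members, and no scrambled library was left out. Dropping libraries that lie off from their own group lowers its spread, so p-values without them come out too small. Over all genes, 5015 were called without them and 2920 with all libraries.

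**Figure D1:**
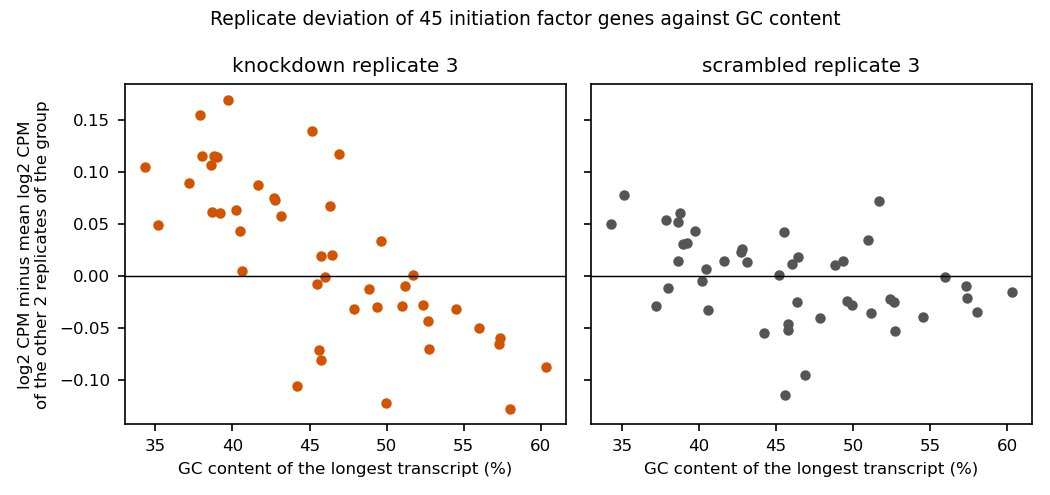
Each point is 1 of 45 initiation factor genes, with the GC content of its longest transcript (%) on the horizontal axis and, on the vertical axis, its log2 CPM in replicate 3 minus the mean log2 CPM of the other 2 replicates of the group. In knockdown replicate 3 (left) the points run down from low to high GC with r = -0.75, and in scrambled replicate 3 (right) they run down less steeply with r = -0.41.

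With all libraries, 6 of the 45 tested initiation factor genes fell in the knockdown and 1 rose, all by small amounts. EIF4A2, EIF1, EIF4A3, EIF4G3, EIF3A and EIF4B fell, with fitted changes from -9.40% to -5.43%, and EIF4E3, a low-level relative of the cap-binding protein, rose by 13.1%. A gene counted as called where the quasi-likelihood test of edgeR gave a p below 0.05 after Benjamini-Hochberg adjustment over 15678 genes. The lowered members were 13.3% of those tested, against 7.49% of all tested genes and 10.2% of the 9301 tested genes whose mean was at least 10 CPM, which 44 of the 45 members reach. The raised member was 2.22% of those tested, against 11.1% of all tested genes and 11.4% of those at 10 CPM or more. Called either way, the members' share was 15.6%, against 18.6% of all tested genes.

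The members' median log2 fold change was -0.03 (range -0.14 to 0.18), against 0.00 over all tested genes. Of the 45, 29 (64.4%) had a fitted change below 0, against 49.2% of all tested genes and 53.0% of those at 10 CPM or more. All 3 knockdown values lay below all 3 scrambled values in 16 members (35.6%), against 16.5% of all tested genes and 20.9% of those at 10 CPM or more. All 3 lay above in 5 members (11.1%), against 18.1% of all tested genes. At an unadjusted p below 0.05, 17 members (37.8%) were lower and 5 (11.1%) were higher, against 14.2% and 17.0% of all tested genes. The share among genes at 10 CPM or more was not counted at this unadjusted p.

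When knockdown libraries 3_2 and 3_3 were left out, 21 members (46.7%) were lowered and 5 (11.1%) raised, beside 15.5% and 16.5% of all tested genes. A correction for GC content gave 20 lowered (44.4%) and 4 raised (8.89%) members, beside 16.7% and 14.8% of all tested genes. Leaving out the whole of knockdown replicate 3 gave 19 lowered (42.2%) and 6 raised (13.3%) members, beside 14.3% and 15.6%. The 7 genes called with all libraries were called in each of these 3 settings. In all 3 of them, 16 members were called lowered and 4 raised, with EIF3C and its near-identical copy EIF3CL among the raised. These 3 settings share libraries, so they are not independent of each other. The share of all tested genes called in all 3 was not counted, nor were shares among genes at 10 CPM or more in each. With library totals in place of trimmed-mean (TMM) normalization factors, 3 members (6.67%) were lowered and 1 (2.22%) was raised, beside 6.01% and 12.4% of all tested genes.

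**Figure D2:**
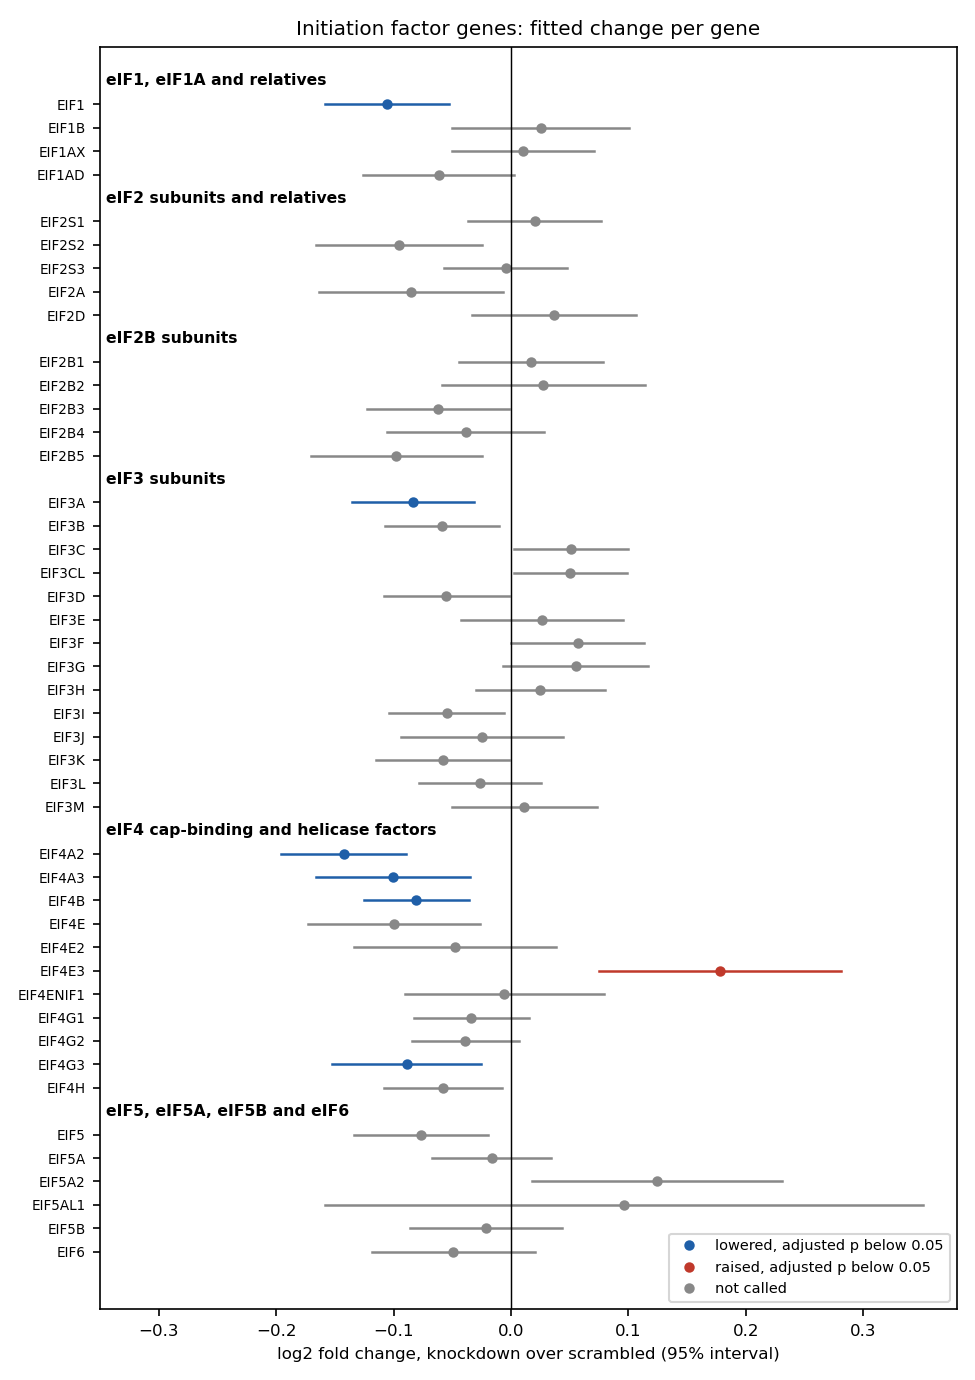
Points are the fitted log2 fold changes (knockdown over scrambled, horizontal axis) of the 45 tested initiation factor genes, ordered by role on the vertical axis, and lines are 95% intervals from the fit on 3 replicates a group. The 6 lowered genes in blue lie between -0.14 and -0.08, the raised EIF4E3 in red lies at 0.18, and the 38 genes that were not called are in grey.

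The cap-binding and helicase factors held 5 of the 7 called genes. Of their 13 members 11 were tested, 4 fell, 1 rose, and the median log2 fold change was -0.06, with 10 of 11 below 0. The shares of all tested genes were 7.49% lowered, 11.1% raised and 49.2% with a change below 0. With libraries 3_2 and 3_3 left out, 7 of the cap-binding and helicase genes were lowered and 1 raised, beside 15.5% and 16.5% of all tested genes. EIF4A2, one of the paralogous helicases that can serve as the eIF4A subunit of eIF4F, lies at chr3:186783205-186789900 on the plus strand (GRCh38, GENCODE 29). Its level was 319, 317 and 321 CPM in scrambled replicates 1 to 3 and 284, 286 and 297 CPM in knockdown replicates 1 to 3. The groups did not overlap, and knockdown replicate 3 was the one nearest the scrambled values. EIF4A2 fell by 9.40% (95% interval -12.7% to -5.99%, adjusted p = 0.000411). Across the single libraries its range was 314 to 328 CPM in scrambled and 280 to 305 CPM in knockdown cells, so no library of one group reached the other. Small nucleolar RNA genes and a microRNA gene share single stretches of its annotated exons, each under 3% of the exon bases, and the antisense gene AC112907.3 lies opposite to 7.09% of them.

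EIF4A3, the related helicase of the exon junction complex that marks spliced mRNA, read 134, 129 and 127 CPM in scrambled and 125, 122 and 117 CPM in knockdown replicates. The scrambled values were all higher, although the nearest values of both groups differed little. EIF4A3 fell by 6.71% (95% interval -10.9% to -2.37%, adjusted p = 0.0293), a call lost with library totals (adjusted p = 0.0523) and without scrambled replicate 1 or 2 or knockdown replicate 2 (0.0617 to 0.180). The ratio of EIF4A2 to EIF4A3 was 2.45 ± 0.067 (SD, n = 3) in scrambled and 2.39 ± 0.141 in knockdown replicates, which overlapped (exact permutation test, two-sided, p = 0.50).

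EIF4A1, the helicase usually taken as the main eIF4A, is listed at 0 in all 18 libraries, so eIF4A as a whole could not be followed. Its annotated place is chr17:7572706-7579005 on the plus strand. There, 29.8% of its exon bases are shared with the read-through gene SENP3-EIF4A1 and 41.1% with the noncoding gene AC016876.2, both on the same strand. How reads that overlap several genes were counted is not given in the sources used here. SENP3-EIF4A1 stood at 0.732 ± 0.115 CPM (SD, n = 3) in scrambled and 0.451 ± 0.122 CPM in knockdown replicates, a log2 fold change of -0.69 (SE 0.228, adjusted p = 0.0371), from 2 to 30 counts a library. None of SNORA67, SNORA48 and SNORD10, the small nucleolar RNAs within EIF4A1, was called, and their log2 fold changes were -0.15, -0.09 and -0.06.

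EIF4B, an RNA-binding partner that stimulates the helicase, was the highest of the called genes in CPM. It had 986, 994 and 1002 CPM in scrambled replicates and 938, 933 and 949 CPM in knockdown replicates. The lowest scrambled value was above the highest knockdown value, and the groups had SDs of 8.36 and 7.88 CPM. EIF4B (chr12:53006158-53042209, plus strand) fell by 5.43% (95% interval -8.33% to -2.43%, adjusted p = 0.0115). The call was lost without scrambled replicate 2 or 3 or knockdown replicate 2 (adjusted p = 0.0570 to 0.0812). An antisense gene, AC068888.1, lies opposite to 11.9% of its exon bases, and the strand setting of the counting is not given in the sources used here. EIF4H, which also stimulates the helicase, read 438, 434 and 429 CPM in scrambled and 419, 422 and 408 CPM in knockdown replicates, with an adjusted p of 0.102. It was called lowered without libraries 3_2 and 3_3, a selection made from these data (adjusted p = 0.00208).

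Of the scaffold genes, EIF4G3 fell while EIF4G1 and EIF4G2 were not called. EIF4G3, a paralog of EIF4G1 that can replace it in eIF4F, had 75.7, 74.8 and 75.9 CPM in scrambled and 71.6, 70.4 and 70.9 CPM in knockdown replicates. Both groups were tight, with SDs of 0.581 and 0.619 CPM, and did not overlap. EIF4G3 fell by 5.98% (95% interval -10.02% to -1.75%, adjusted p = 0.0455). The call was lost with library totals (adjusted p = 0.0862), with no count filter (0.0563) and without any 1 replicate other than knockdown replicate 3 (0.0690 to 0.151). EIF4G1, the main scaffold, had a log2 fold change of -0.03 (95% interval -0.08 to 0.02). EIF4G2, a truncated relative that lacks the eIF4E-binding region, had 1177, 1175 and 1181 CPM in scrambled and 1139, 1131 and 1169 CPM in knockdown replicates, which did not overlap, but with a log2 fold change of -0.04 it was not called (adjusted p = 0.239). The ratio of EIF4G1 to EIF4G3 was 12.3 ± 0.177 in scrambled and 12.8 ± 0.303 in knockdown replicates, with overlap (exact permutation test, two-sided, p = 0.20), so a difference between these paralogs was not shown.

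Of the cap-binding genes, EIF4E3 rose and no other was called. EIF4E3, a divergent cap-binding relative at chr3:71675416-71754773 on the minus strand, had 16.1, 17.9 and 16.6 CPM in scrambled and 18.3, 19.1 and 19.9 CPM in knockdown replicates. Its highest scrambled and lowest knockdown values lay close together, and its single libraries overlapped, from 15.6 to 18.8 CPM in scrambled and from 16.3 to 20.4 CPM in knockdown cells. EIF4E3 rose by 13.1% (95% interval 5.32% to 21.5%, adjusted p = 0.0147), a call lost without scrambled replicate 1 (adjusted p = 0.112) or 3 (0.0613). On the same strand, AC097634.4 shares 6.85% of its exon bases. EIF4E, the cap-binding subunit of eIF4F, had 67.30, 68.52 and 69.38 CPM in scrambled and 61.76, 62.55 and 67.25 CPM in knockdown replicates. These groups did not overlap, with knockdown replicate 3 just under the lowest scrambled value, and the log2 fold change of -0.10 missed the threshold (adjusted p = 0.0529). Without libraries 3_2 and 3_3, a selection made from these data, it was -0.13 (adjusted p = 9.11e-06).

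Within each sample the ratio of EIF4E to EIF4E3 counts was 4.18, 3.83 and 4.17 in scrambled and 3.37, 3.28 and 3.39 in knockdown replicates, lower in 3 of 3 knockdown replicates. Its exact two-sided permutation p was 0.10, which is the smallest that 3 against 3 replicates allow, and 0.20 after adjustment over the 6 ratios examined, which were chosen after the values were seen. EIF4E2, a cap-binding repressor of translation, was not called (log2 fold change -0.05, 95% interval -0.13 to 0.04), nor was EIF4ENIF1, the carrier that takes eIF4E into the nucleus (-0.01, 95% interval -0.09 to 0.08). EIF4E1B, an oocyte relative of EIF4E, had 0 to 2 counts a library and was not tested.

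**Figure D3:**
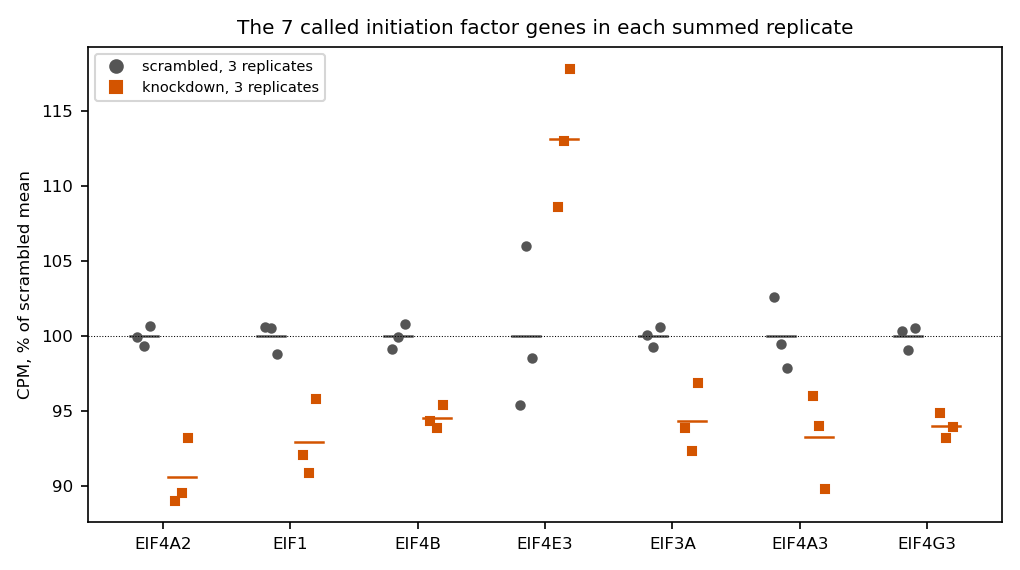
Each symbol is the CPM of 1 summed replicate as a percentage of the mean of the 3 scrambled replicates, for the 7 called genes, with short lines at the group means (grey circles scrambled, orange squares knockdown, 3 replicates each). In none of the 7 genes do the groups overlap, and EIF4E3 is the one gene whose knockdown values lie above 100%.

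Among the 4 tested genes of eIF1, eIF1A and their relatives, EIF1 fell and the others were not called. Without libraries 3_2 and 3_3, EIF1 and EIF1AD were lowered and none was raised, beside 15.5% and 16.5% of all tested genes. EIF1, which keeps the scanning subunit open until a start codon is met, had 410, 410 and 403 CPM in scrambled and 376, 371 and 391 CPM in knockdown replicates. The groups did not overlap, and knockdown replicate 3 was again the nearest to the scrambled group. EIF1 (chr17:41688885-41692668, plus strand) fell by 7.05% (95% interval -10.4% to -3.58%, adjusted p = 0.00535). Its paralog EIF1B had 39.3, 38.5 and 39.6 CPM in scrambled and 38.8, 39.6 and 41.2 CPM in knockdown replicates, and was not called. The ratio of EIF1 to EIF1B was 10.4 ± 0.233 in scrambled and 9.51 ± 0.157 in knockdown replicates without overlap (exact permutation test, two-sided, p = 0.10, adjusted p = 0.20 over the 6 ratios). EIF1AX, the X-linked gene of eIF1A, had a log2 fold change of 0.01 (95% interval -0.05 to 0.07), EIF1AD, a protein with an eIF1A-like domain, one of -0.06 (95% interval -0.13 to 0.00), and EIF1AY is listed at 0 in all 18 libraries.

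Of the 14 eIF3 subunit genes, 1 fell and none rose, beside 7.49% lowered and 11.1% raised of all tested genes. The median log2 fold change was -0.01 with 7 on each side of 0. eIF3 is the large scaffold that holds the small subunit and the mRNA together. EIF3A, its largest subunit, had 384, 381 and 386 CPM in scrambled and 360, 354 and 372 CPM in knockdown replicates. The knockdown replicates spread more (SD 8.84 CPM) than the scrambled ones (SD 2.50 CPM), but the groups stayed apart. EIF3A (chr10:119033670-119080823, minus strand) fell by 5.62% (95% interval -8.96% to -2.16%, adjusted p = 0.0221). The call was lost with library totals (adjusted p = 0.0522) and without scrambled replicate 1, 2 or 3 or knockdown replicate 1 or 2 (0.0634 to 0.124). EIF3B, which with EIF3A forms part of the core, had 598, 599 and 598 CPM in scrambled and 582, 580 and 561 CPM in knockdown replicates, and its adjusted p was 0.0843.

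Within eIF3, calls in both directions were made when knockdown replicate 3 was set aside. Without libraries 3_2 and 3_3, 6 of the 14 were lowered (EIF3A among them) and 4 raised, beside 15.5% and 16.5% of all tested genes. With GC correction 5 were lowered and 3 raised, beside 16.7% and 14.8%. Both raised counts include EIF3C and its inseparable copy EIF3CL, which may be 1 signal. EIF3A, EIF3B, EIF3D and EIF3I were lowered, and EIF3C, EIF3CL and EIF3F raised, in both settings and without the whole replicate. EIF3F, a subunit with a deubiquitinase-like domain, had 169, 165 and 163 CPM in scrambled and 173, 171 and 173 CPM in knockdown replicates, which did not overlap. With all libraries its log2 fold change was 0.06 (adjusted p = 0.157). EIF3D, a subunit that can itself contact the cap, had 226, 225 and 222 CPM in scrambled and 218, 217 and 213 CPM in knockdown replicates (adjusted p = 0.147).

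EIF3C and its near-identical copy EIF3CL cannot be separated here. Their counts differed by 0.222% to 0.562% in each of the 18 libraries, and their log2 fold changes were both 0.05 (adjusted p = 0.139 and 0.141). They are uncertain as separate genes, since shared reads could have been counted for both.

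None of the 5 eIF2 genes and none of the 5 eIF2B genes was called with all libraries. Without libraries 3_2 and 3_3, 2 eIF2 genes (EIF2S2 and EIF2A) and 2 eIF2B genes (EIF2B3 and EIF2B5) were lowered, as they were with GC correction. Without the whole of knockdown replicate 3, 2 eIF2 genes were lowered and 1, EIF2D, was raised. Of the eIF2B genes only EIF2B3 was then lowered, and EIF2B5 was not called. The shares of all tested genes lowered were 15.5%, 16.7% and 14.3% in these 3 settings, and those raised were 16.5%, 14.8% and 15.6%. With all libraries, 2 eIF2 and 2 eIF2B genes were lower at an unadjusted p below 0.05 and none was higher. All tested genes had shares of 14.2% lower and 17.0% higher. DESeq2 called EIF2S2 and EIF2B5 lowered, beside 7.89% of all genes it tested. EIF2S3, the GTP-binding gamma subunit of eIF2 and the highest of these genes in CPM, had 605, 614 and 620 CPM in scrambled and 593, 608 and 633 CPM in knockdown replicates. The knockdown values bracketed the scrambled ones, with a change of -0.315% (95% interval -3.88% to 3.38%). EIF2S1, the alpha subunit that stress kinases phosphorylate, had a log2 fold change of 0.02 (95% interval -0.04 to 0.08). EIF2S2, the beta subunit, had 140, 142 and 141 CPM in scrambled and 127, 129 and 141 CPM in knockdown replicates. Only knockdown replicate 3 reached the scrambled range, and the log2 fold change was -0.10 (adjusted p = 0.0547). It was -0.14 without libraries 3_2 and 3_3, a selection made from these data (adjusted p = 3.35e-09). EIF2A, a separate protein that can bind initiator tRNA, showed the same arrangement, with 132, 136 and 138 CPM in scrambled and 122, 123 and 138 CPM in knockdown replicates.

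Of the eIF2B genes, whose products form the exchange factor for eIF2, EIF2B3 was the highest in CPM, with 112, 110 and 112 CPM in scrambled and 108, 106 and 106 CPM in knockdown replicates. These values did not overlap, and the change of -4.22% was not called (95% interval -8.15% to -0.117%, adjusted p = 0.148). EIF2B5, the catalytic epsilon subunit, had 86.9, 84.4 and 84.0 CPM in scrambled and 81.8, 81.7 and 75.1 CPM in knockdown replicates. Here knockdown replicate 3 was the lowest, and the log2 fold change was -0.10 (adjusted p = 0.0549).

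None of the 6 genes of eIF5, eIF5A, eIF5B and eIF6 was called with all libraries. At an unadjusted p below 0.05, 1 was lower and 1 higher, beside 14.2% and 17.0% of all tested genes. Without libraries 3_2 and 3_3, a selection made from these data, EIF5 (log2 fold change -0.10, adjusted p = 6.88e-09) and EIF5B (-0.06, adjusted p = 0.00376) were lowered. None was raised, and the shares of all tested genes were 15.5% lowered and 16.5% raised. Of the 6 genes, DESeq2 called EIF5 lowered, beside 7.89% of all genes it tested. EIF5A, a factor that helps the ribosome past difficult peptide bonds and carries the amino acid hypusine, had 566, 555 and 557 CPM in scrambled and 559, 563 and 536 CPM in knockdown replicates. Its groups overlapped, with a change of -1.13% (95% interval -4.55% to 2.41%). EIF5A2, its paralog of restricted expression, had 13.9, 15.2 and 15.03 CPM in scrambled and 15.8, 15.5 and 16.8 CPM in knockdown replicates, without overlap. The log2 fold change of EIF5A2 was 0.12 (adjusted p = 0.0967), and the ratio of EIF5A to EIF5A2 was 38.1 ± 2.22 in scrambled and 34.6 ± 2.33 in knockdown replicates, again without overlap (exact permutation test, two-sided, p = 0.10, adjusted p = 0.20). EIF5, the factor that makes eIF2 hydrolyse its GTP, had 337, 334 and 339 CPM in scrambled and 308, 317 and 332 CPM in knockdown replicates, with a log2 fold change of -0.08 (adjusted p = 0.0548). EIF5B and EIF6, the subunit-joining factor and the factor that keeps the large subunit free, had log2 fold changes of -0.02 and -0.05. EIF5AL1, a copy of EIF5A, had 30 to 61 counts a library.

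The intervals of the fit on all libraries give a range for each uncalled member singly, without adjustment over genes. They depend on the TMM scaling, and the deviations of knockdown replicate 3 with GC content remain in that fit. Of the 37 uncalled members at 10 CPM or more, no 95% interval reached beyond a rise of 17.4% (EIF5A2) or a change of -11.3% (EIF4E).

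**Figure D4:**
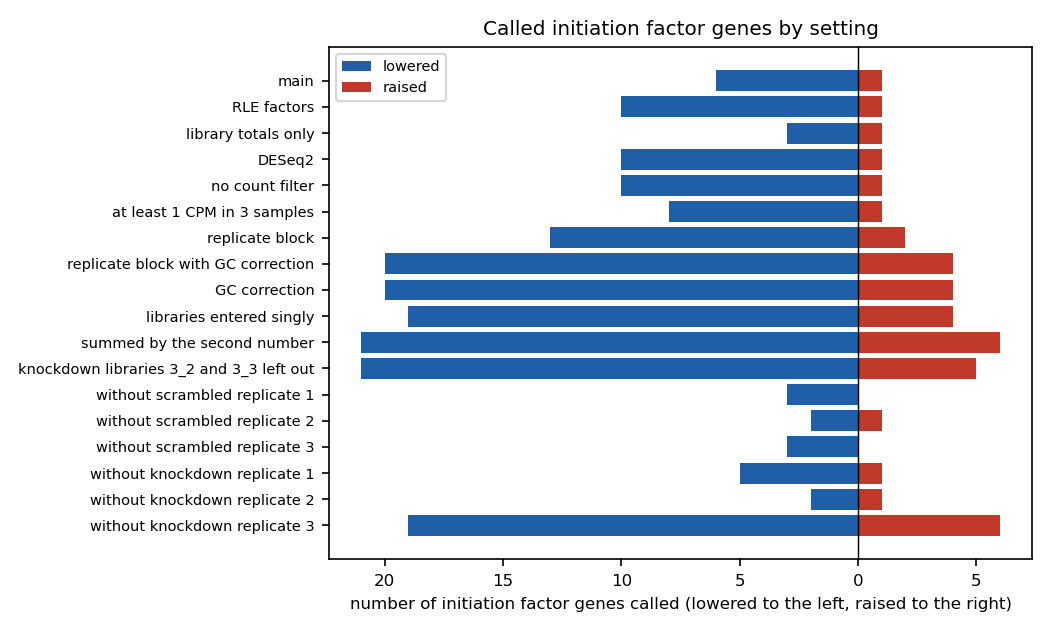
Bars give the number of initiation factor genes called (adjusted p below 0.05), lowered to the left and raised to the right, for the fit on all libraries (main) and 17 other settings. The lowered count is 6 with all libraries, 3 with library totals only, 2 to 5 when any replicate other than knockdown replicate 3 is left out, and 19 to 21 when technical libraries are entered singly or summed by the second number, when GC is corrected, or when all or part of knockdown replicate 3 is left out. Entering libraries singly or summing by the second number does not measure the spread between biological replicates.

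Compared per length, the factors spanned a wide range of levels. Per kilobase of the longest annotated transcript, EIF5A was at 370 ± 3.99 CPM in scrambled and 366 ± 9.54 CPM in knockdown replicates (SD, n = 3). EIF3I, a ring-shaped eIF3 subunit, followed at 288 ± 4.17 and 277 ± 1.91 CPM per kilobase. EIF4B ranked 3 at 240 ± 2.02 and 227 ± 1.90, and EIF2S3 ranked 5 at 214 ± 2.55 and 214 ± 6.97. By this length, EIF2S3 did not differ beyond the spread from EIF3K, a small eIF3 subunit, at 218 ± 4.66 and 209 ± 5.94. As means of 6 replicates, EIF2S3 and EIF3K were at 214 and 328 by the principal transcript and at 1351 and 412 by the median length. At the bottom lay EIF2B2 with 4.96 ± 0.107 and 5.06 ± 0.0782, EIF5A2 with 2.63 ± 0.121 and 2.86 ± 0.123, EIF4E3 with 1.69 ± 0.0919 and 1.92 ± 0.0780, and EIF5AL1 with 0.446 ± 0.0432 and 0.479 ± 0.0438. These 4 were the lowest 4 of 45 under each of 3 choices of transcript length. The upper order depended on that choice: EIF4G2 ranked 9 by the longest transcript and 1 by the principal or the median transcript, and EIF4A2 ranked 20, 14 and 12.

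**Figure D5:**
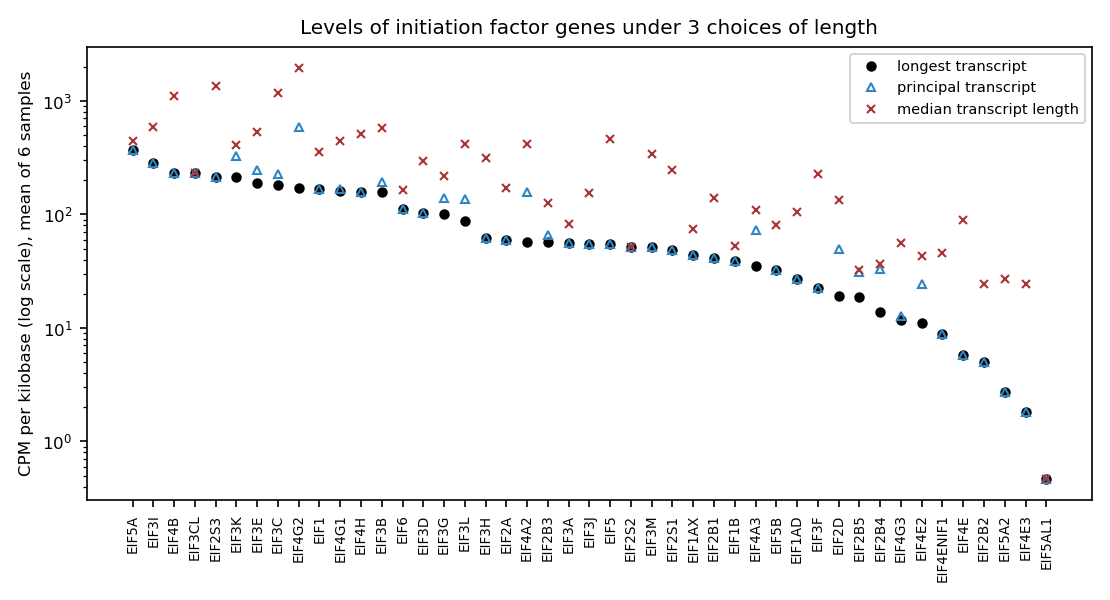
Symbols give CPM per kilobase of transcript on a log axis, as means of 6 replicates, for the 45 tested genes in order of their level by the longest transcript (black circles), with the principal transcript (blue triangles) and the median transcript length (red crosses) beside it. EIF5AL1 is lowest by all 3 lengths, at 0.463, and most genes lie higher by the median length.

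Called genes were found among members with and without the promoter E-box described above. Their counts stand beside 7.49% lowered, 11.1% raised and 49.2% with a change below 0 over all tested genes. Of the 10 tested members with CACGTG, 2 were lowered (EIF4B and EIF4A3) and 7 of 10 had a change below 0, with a median of -0.06. Of the 28 tested members whose promoter entry lacked it, 3 were lowered, 1 was raised and 19 were below 0, with a median of -0.03. The difference between these sets was not tested.

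Genes that act on the initiation factors, and genes of elongation, termination and recycling, are given next. Their counts stand beside 7.49% lowered and 11.1% raised of all tested genes with all libraries. Without libraries 3_2 and 3_3 these shares were 15.5% and 16.5%. None of the 3 genes for eIF4E-binding proteins, which hold eIF4E away from eIF4G, was called or lay at an unadjusted p below 0.05, and DESeq2, or edgeR without libraries 3_2 and 3_3, called none. EIF4EBP1 was at 47.2 ± 1.13 CPM (SD, n = 3) in scrambled and 46.8 ± 1.76 CPM in knockdown replicates, EIF4EBP2 at 307 ± 3.22 and 313 ± 9.82 CPM, and EIF4EBP3 at 0.323 ± 0.0366 and 0.325 ± 0.166 CPM. Most of the EIF4EBP3 exon bases, 73.4%, are shared with the read-through gene ANKHD1-EIF4EBP3.

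Of 14 genes for eIF2 kinases, phosphatase subunits and their partners, 1 rose and 2 fell, with a median of -0.02, and without libraries 3_2 and 3_3 2 were raised and 5 lowered. EIF2AK2, the kinase PKR that double-stranded RNA activates, had 37.7, 39.7 and 41.1 CPM in scrambled and 44.9, 45.3 and 47.4 CPM in knockdown replicates, a rise of 16.2% (adjusted p = 0.000330). PPP1R15A and PPP1R15B direct a phosphatase to eIF2 and reverse the action of the kinases. PPP1R15A fell by 10.8% (adjusted p = 0.00361), from 107 ± 3.10 to 95.8 ± 5.84 CPM. PPP1R15B fell by 7.97% (adjusted p = 0.00661), from 154 ± 3.85 to 142 ± 3.36 CPM. The groups did not overlap in any of these 3 genes.

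Of 21 cap-complex regulators and partners bound to mRNA, 2 rose and 3 fell, with a median of 0.00, and without libraries 3_2 and 3_3 3 were raised and 8 lowered. MKNK2, a kinase that phosphorylates eIF4E, fell by 7.97% (adjusted p = 0.0118). NCBP2, a subunit of the nuclear cap-binding complex, fell by 8.05% (adjusted p = 0.0120), and PAIP2B, an inhibitor of poly(A)-binding protein, rose by 18.4% at a low level of 4.54 CPM in scrambled cells (adjusted p = 0.0213). Without scrambled replicate 1 or 2, none of this list was called lowered.

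Of 9 elongation factor and related genes, with EEF2K and EEF1E1 among them, 1 rose and 1 fell. Without libraries 3_2 and 3_3, 1 was raised and 4 were lowered. EEF1A2, the tissue-restricted form of the factor that brings aminoacyl-tRNA to the ribosome, had 12.6, 11.3 and 12.1 CPM in scrambled and 17.3, 17.0 and 16.7 CPM in knockdown replicates, a rise of 42.1% (adjusted p = 3.47e-07). EEF1A1, the general form, fell by 4.76%, from 11735 ± 79.6 to 11177 ± 119 CPM (adjusted p = 0.0133). A list of 7 genes held recycling, reinitiation and other initiation factors, with MTIF2 and MTIF3 among them. In it HBS1L, a ribosome rescue factor, fell by 7.72% (adjusted p = 0.0113) and no other was called. Without libraries 3_2 and 3_3, 2 were lowered. Of the 2 hypusine enzymes that modify eIF5A, DHPS fell by 7.35%, with overlapping groups (adjusted p = 0.0451), and 1 of the 2 was also lowered without libraries 3_2 and 3_3. None of the 3 termination factor genes was called with all libraries, by edgeR or DESeq2, or lay at an unadjusted p below 0.05, and the smallest p was that of ETF1, the protein that reads stop codons, with a log2 fold change of -0.03 (adjusted p = 0.436). Leaving out libraries 3_2 and 3_3, 2 of the 3 were lowered.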

How the data were processed

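RNA from 18 K562 libraries was measured by RNA-seq after rRNA depletion with a directional kit, per the labels' protocols. The authors deposited whole-number counts per gene symbol. Trim Galore, STAR and featureCounts on GRCh38 are named in the submitters' processing notes, while no source used here gives their versions, the annotation or the settings for strand and shared reads. The deposited counts were not normalized and carry counting error that falls with depth, which was 19118533 to 29432699 counts a library.

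Technical libraries were summed by the first number in the library name, giving 3 replicates a group. The labels call these biological replicates without naming separate cultures, so p-values measure the spread between these samples. edgeR 4.0.16 in R 4.3.3 was run with TMM factors, its expression filter and the robust quasi-likelihood test on group alone, and 15678 genes were adjusted together by Benjamini-Hochberg. Log2 fold changes are those of the fit with edgeR's default prior count, CPM uses TMM library sizes, and SDs are over 3 replicates. Knockdown replicate 3 had the largest median deviations with GC content, as given above.

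GC content, transcript lengths and positions came from GENCODE 29, and GC was matched for 96.3% of tested genes. Promoters came from the RefSeq table. On simulated data the fit recovered 63.2% of genes changed 1.2-fold, 77.3% changed 1.5-fold and 97.0% changed 2-fold, with 6 false calls among 15478 unchanged genes. Changes as small as those of the called members were not simulated. The simulation changed 68, 66 and 66 genes at these sizes, where 2920 genes were called in the data. Each gene was drawn on its own, without the shared deviations with GC content, so these rates need not hold for this comparison. Alternatives were other scaling, other filters, DESeq2 1.42.0, a replicate block, GC correction, other sums of the technical libraries and leaving out replicates. Ratios were tested with exact permutations in scipy 1.17.1.

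The members, lists and tests were chosen with earlier results of these data known. Values in every sample were to be given for each called member and for the highest member in CPM of each role group without a call, and related lists by up to 3 called genes. Further members were named after their values were seen. EIF4A1 and EIF1AY (listed at 0) and EIF4E1B failed the count filter.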

Additional observations from a re-analysis of the deposited data

Results flagged for a closer look

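Among 90 sets of 9 libraries (45 tested genes in each group), 2 held a library whose gap to its nearest neighbour, divided by the whole range, passed Dixon's 95% critical value; chance alone would flag about 1 set in 20. EIF1B, the paralog of EIF1, was at 45.6 CPM in knockdown library 3_3, where the other 8 knockdown libraries lay between 37.9 and 40.1 CPM. EIF4G2, the truncated scaffold relative, was at 1207 CPM in scrambled library 3_1, where the other 8 scrambled libraries lay between 1166 and 1182 CPM.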

How the results depend on the processing

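No fitted change of a member or related gene turned its direction past the threshold under any of the 17 alternatives. EIF4A2 and EIF1 were called under all 17 (highest adjusted p 0.00641 and 0.0478). The other called genes were lost under some: EIF3A with library totals (adjusted p = 0.0522) and without scrambled replicate 1, 2 or 3 or knockdown replicate 1 or 2 (0.0634 to 0.124); EIF4A3 with library totals (0.0523) and without scrambled replicate 1 or 2 or knockdown replicate 2 (0.0617 to 0.180); EIF4B without scrambled replicate 2 or 3 or knockdown replicate 2 (0.0570 to 0.0812); EIF4E3 without scrambled replicate 1 or 3 (0.112 and 0.0613); and EIF4G3 with library totals (0.0862), no count filter (0.0563) and without any replicate other than knockdown replicate 3 (0.0690 to 0.151). The cause of these losses was not tested, beyond the smaller number of samples where a replicate was left out.

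The number of lowered members was 6 with all libraries, 10 with the size factors of DESeq2 used in edgeR (RLE), 3 with library totals only, 10 with DESeq2, 10 with no count filter, 20 with GC correction, 19 with libraries entered singly, 21 with libraries summed by the second number and 21 without knockdown libraries 3_2 and 3_3. Raised members numbered 1, and 4, 4, 6 and 5 in the last 4 of these settings. Libraries entered singly treat technical libraries as replicates, and sums by the second number mix the biological replicates. Neither setting measures the spread between biological replicates, so their p-values are not valid tests of the knockdown, here and in the lists below. Leaving out 1 replicate at a time gave 2 to 19 lowered and 0 to 6 raised members; the highest values were those without knockdown replicate 3. Over all genes, 1175 were lowered with all libraries, 2618 with GC correction, 2036 with libraries entered singly, 2389 with sums by the second number, 2426 without libraries 3_2 and 3_3, and 623 to 2280 without 1 replicate, and 1127 to 2482 were raised without 1 replicate, beside 1745. The raised share of all calls was 59.8% with all libraries, 47.0% with GC correction and 46.8% with the replicate block and GC correction.

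Replicate numbers are shared by the groups, but same-numbered replicates had deviation correlations of 0.0302, 0.0114 and 0.0113, so the numbers were not taken as pairs, and not every replicate correlated best with its own number. The replicate block gave 13 lowered and 2 raised members and 1772 lowered genes in all. With the replicate block and GC correction these were 20, 4 and 2632.

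Of the related lists, the cap-complex regulators had 3 lowered and 2 raised genes, and under the alternatives 7 lowered with GC correction, also with the replicate block, 5 with libraries singly, 7 with sums by the second number, 8 without libraries 3_2 and 3_3 and 0 to 7 without 1 replicate, and 0 raised with DESeq2 and 0 to 3 without 1 replicate. The eIF2 kinase list had 2 lowered and 1 raised, then 5 lowered with GC correction, also with the replicate block, 4 with libraries singly or summed by the second number, 5 without libraries 3_2 and 3_3 and 1 to 4 without 1 replicate, and 2 raised with sums by the second number or without those libraries and 1 to 2 without 1 replicate. Elongation factors had 1 lowered, then 3 with RLE factors or the replicate block, 2 with DESeq2 or a minimum of 1 CPM, 6 with GC correction, also with the replicate block, 4 with libraries singly, 5 with sums by the second number, 4 without libraries 3_2 and 3_3 and 0 to 4 without 1 replicate. Recycling factors had 1 lowered, then 2 with GC correction, also with the replicate block, or without libraries 3_2 and 3_3, and 0 to 2 without 1 replicate. Termination factors had 0, then 2 without libraries 3_2 and 3_3 and 0 to 2 without 1 replicate. Hypusine enzymes had 1, then 0 with library totals or DESeq2 and 0 to 1 without 1 replicate. The cause of these moves was not tested. The principal transcript length was added after seeing the data.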
